A study of Mus musculus with 2 samples.

Results

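The genes described here encode the proteasome, the protease complex that degrades ubiquitin-tagged proteins, with its regulators and assembly chaperones. They were taken as every row of the expression tables whose symbol starts with Psm, then a letter from a to g, then a digit, which gave 50 of 24346 symbols. Of these, 49 had a mean of at least 1 FPKM over both libraries (FPKM scales the fragments of a gene by its transcript length and by the library's mapped fragments). The remaining symbol, Psmc3ip, which encodes a partner protein of a recombination complex and no proteasome subunit, was listed at 0 in both libraries.

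Gr-1+ CD11b+ cells, a sorted population that holds neutrophils and monocytes, came from BALB/c mice treated for 6 days with 3% DSS (dextran sulfate sodium), a polymer that causes colitis. One library was made from such cells kept for 2.5 hours with 100 µM ATPγS, a slowly hydrolysed ATP analogue that acts on nucleotide receptors (ATPγS, n = 1). The other was made from cells kept without ATPγS (control, n = 1), so the mice behind both libraries had received DSS, and no difference has a replicate check. In bulk RNA, fewer cells of a type and less RNA per cell cannot be told apart. The recovered depth was 2848000 fragments in the ATPγS library and 2137000 in the control library, and 21282 and 20485 symbols were listed above 0. Of 9 marker genes of the sorted population, among them Itgam (the CD11b chain), all were listed above 0 in both libraries. Their summed level was 38305 FPKM in ATPγS and 35275 FPKM in control, and Ly6g was not analysed here. Most of that sum came from S100a8 (22410 FPKM in ATPγS, 20604 in control) and S100a9 (14942 FPKM in ATPγS, 13776 in control), so it says little of the other markers.

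The 20S core is a barrel of stacked alpha and beta rings. Of the beta positions, beta1, beta2 and beta5 cut peptide bonds with a threonine that becomes the first residue once the propeptide is removed. In immune cells and after interferon, these positions can be filled by the immunoproteasome subunits encoded by Psmb9, Psmb10 and Psmb8, which change the peptides cut for MHC class I presentation. The 19S cap binds ubiquitin chains, removes them and unfolds the substrate with a ring of ATPases, while other activators open the core without ubiquitin.

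The coding sequence around the catalytic threonine is shown for each pair of an immunoproteasome and a constitutive gene, since the comparison of these pairs rests on reads that tell the partners apart. Sequences run 5′ to 3′ on the coding strand (GENCODE M21 transcripts, GRCm38), and the capitals mark the codon of the threonine, which was located by translation of the coding sequence.
Psmb8 (beta5i, chromosome 17): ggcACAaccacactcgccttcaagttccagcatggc
Psmb5 (beta5, chromosome 14): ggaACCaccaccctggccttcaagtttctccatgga
Psmb9 (beta1i, chromosome 17): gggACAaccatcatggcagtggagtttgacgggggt
Psmb6 (beta1, chromosome 11): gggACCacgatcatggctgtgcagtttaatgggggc
Psmb10 (beta2i, chromosome 8): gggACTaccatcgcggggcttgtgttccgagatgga
Psmb7 (beta2, chromosome 2): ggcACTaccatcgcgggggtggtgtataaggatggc

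The threonine codon lies at codon 73 in Psmb8, 60 in Psmb5, 21 in Psmb9, 34 in Psmb6, 40 in Psmb10 and 44 in Psmb7, counted from the start codon. Over the whole aligned coding sequence, the partners shared 62.4% of positions for Psmb8 and Psmb5, 60.5% for Psmb9 and Psmb6, and 60.8% for Psmb10 and Psmb7. The pairs are far from identical, unlike Psme2b, whose coding sequence matched that of Psme2 at 715 of 720 positions (99.3%). Values of Psme2b are therefore uncertain.

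Most proteasome genes were abundant, and the levels of most differed little between the libraries. A log2 ratio below is log2((ATPγS FPKM + 1) / (control FPKM + 1)), and at least 2-fold on that scale at a mean of at least 1 FPKM was counted as a difference. On this count 0 of 49 genes were higher in ATPγS, where 13.8% of all genes were, and 2 of 49 (4.08%) were lower, where 9.91% of all genes were. The 2 lower genes were Psmf1, the gene of the proteasome inhibitor PI31, and Psmg4, a chaperone gene of 20S assembly. The median log2 ratio of the 49 genes was -0.18, with 34 below 0 and 15 above. Over all 18311 genes at that level the median was 0.01. At 1.5-fold, 2 of 49 genes were higher, where 24.1% of all genes were, and 11 of 49 (22.4%) were lower, where 20.7% of all genes were.

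Low genes scatter most, so the 39 proteasome genes at a mean of at least 20 FPKM were also set beside the 3480 genes at that level, whose median log2 ratio was -0.12. None of the 39 passed 2-fold in either direction, where 2.3% of all such genes were higher and 5% lower. At 1.5-fold, 0 of 39 were higher, against 7.59% of all such genes, and 7 (17.9%) were lower, against 16.4%, a share near the background. The 7 were Psma2, Psma3, Psma6, Psmc3, Psmd3, Psmd7 and Psmd14, spread over the alpha ring and the cap. Scaling matters for this count, since abundant genes were on balance lower in ATPγS, with a median log2 ratio of -0.13 over 6125 genes at a mean of at least 10 FPKM. With that median set to 0, 1 of 39, Psma3 (log2 ratio -0.70), was at least 1.5-fold lower, against 11.5% of all such genes. On that scaling 22 of 39 in place of 27 were below 0. A log2 ratio closer to 0 than 0.13 therefore has no direction here.

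**Figure D1:**
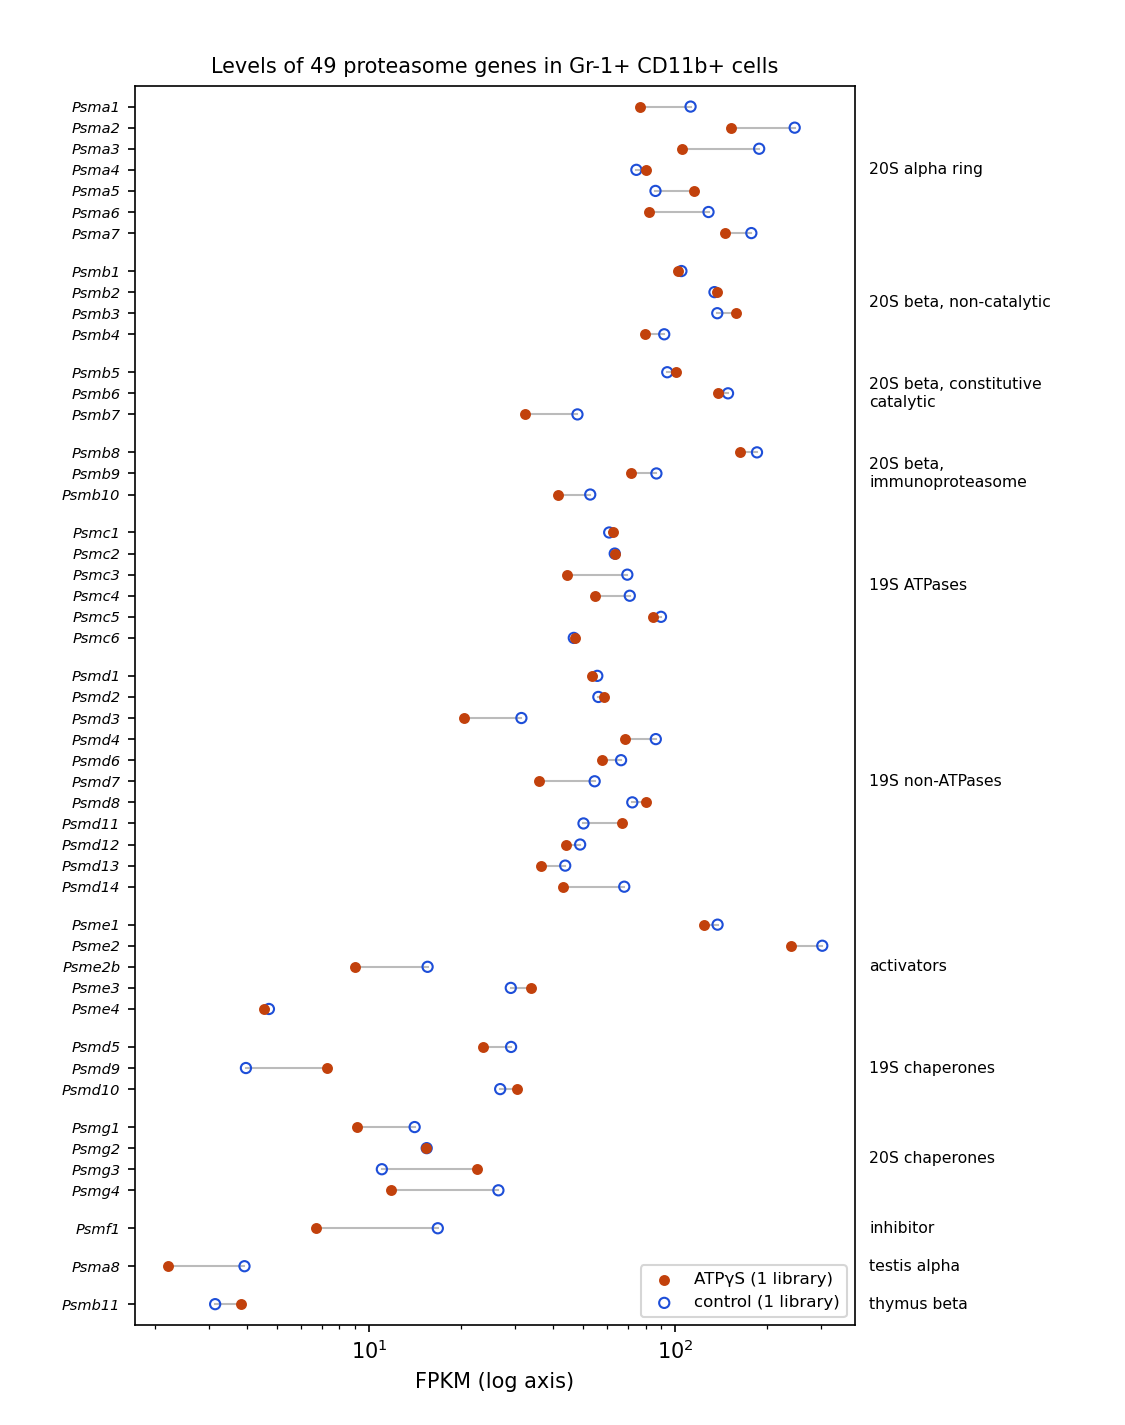
FPKM (log axis) of the 49 proteasome genes at a mean of at least 1 FPKM, filled circles for the ATPγS library and open circles for the control library, grouped by role (1 library each, no error bars). Core subunits lie mostly above cap subunits, with medians of 102.5 and 54.5 FPKM in ATPγS and 112.3 and 60.9 FPKM in control. Most chaperones, the inhibitor, the testis and thymus subunits and the activators Psme4 and Psme2b lie toward the low end.

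Core genes stood above cap genes in both libraries. The median level of the 17 genes of the core was 102.5 FPKM in ATPγS and 112.3 FPKM in control. That of the 17 genes of the cap was 54.5 FPKM in ATPγS and 60.9 FPKM in control, so the core median was 1.88 times the cap median in ATPγS and 1.84 times in control. Of the log2 ratios, 12 of 17 were below 0 in the core and 12 of 17 in the cap, where 60.7% of all genes at a mean of at least 20 FPKM were. These counts include Psmb1, Psmb6, Psmc2, Psmc5 and Psmd1, whose log2 ratios are closer to 0 than 0.13. The median log2 ratios were -0.21 in the core and -0.15 in the cap.

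The alpha ring, which gates the entry to the core, held the largest differences among abundant subunits. Of its 7 genes, 5 were lower in ATPγS, Psma5 was higher and Psma4 had a log2 ratio of 0.11, too close to 0 for a direction, with a median log2 ratio of -0.54, and their summed level was 757.9 FPKM in ATPγS and 1012.9 FPKM in control. Psma3, the alpha7 gene (chromosome 12, 70974621 to 70996347, GRCm38), had 105.3 FPKM in ATPγS and 188.1 FPKM in control, a ratio of 0.560 with a 95% counting interval of 0.476 to 0.661. Psma2, the alpha2 gene and the most abundant of the ring, had 151.7 FPKM in ATPγS and 245.7 FPKM in control (ratio 0.617, interval 0.573 to 0.666). The transcript length behind the reads of Psma2 is uncertain and may be too long, so its interval may be too narrow. Psma2 also overlaps the protein-coding gene AW209491 on the same strand.

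Psma6, which encodes alpha1, was also lower, at 82.3 FPKM in ATPγS and 128.5 FPKM in control (ratio 0.641, interval 0.525 to 0.786). Psma5, which encodes alpha5, went the other way, with 115.0 FPKM in ATPγS and 86.2 FPKM in control (ratio 1.33, interval 1.13 to 1.58). Psma4, the alpha3 gene, had 80.5 FPKM in ATPγS and 74.7 FPKM in control, and its interval of 0.890 to 1.31 includes no difference. Psma7, the alpha4 gene, had 146.0 FPKM in ATPγS and 177.4 FPKM in control, and Psma1 lay at a log2 ratio of -0.54. The most abundant alpha gene stood 1.97 times above the least abundant in the ATPγS library and 3.29 times in the control library.

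The beta subunits without a catalytic threonine gave similar levels in both libraries. Psmb3 (beta3) had 157.8 FPKM in ATPγS and 137.2 FPKM in control, and Psmb2 (beta4) had 137.0 FPKM in ATPγS and 134.4 FPKM in control. Psmb1 (beta6) had 102.5 FPKM in ATPγS and 104.8 FPKM in control, and Psmb4 (beta7) had 79.6 FPKM in ATPγS and 92.1 FPKM in control. The counting interval of each of the 4 ratios includes 1 as deposited, and with the median of abundant genes set to 0 that of Psmb3 does not (1.06 to 1.49). Their log2 ratios ran from -0.21 to 0.20, and their median of -0.00 turns to 0.13 with the median of abundant genes set to 0.

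Immunoproteasome genes made up about as much of the catalytic beta transcripts as the constitutive genes did, in both libraries. The summed level of Psmb8, Psmb9 and Psmb10 was 276.4 FPKM in ATPγS and 324.6 FPKM in control. That of Psmb5, Psmb6 and Psmb7 was 270.7 FPKM in ATPγS and 290.9 FPKM in control. The immunoproteasome share of these sums was 50.5% in ATPγS and 52.7% in control, a difference of -2.22 percentage points. Within each library this share does not depend on the scaling between libraries.

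All 3 immunoproteasome genes were lower in ATPγS by less than 1.5-fold, each with a counting interval just below 1 as deposited. With the median of abundant genes set to 0 all 3 intervals include 1, with upper bounds of 1.07 for Psmb8, 1.08 for Psmb9 and 1.08 for Psmb10, and the log2 ratio of Psmb8 becomes -0.05. Psmb8 (chromosome 17, 34197721 to 34201454) had 163.2 FPKM in ATPγS and 185.0 FPKM in control, a ratio of 0.882 with an interval of 0.793 to 0.981. Psmb9 (chromosome 17, 34181987 to 34187764) had 71.9 FPKM in ATPγS and 86.8 FPKM in control, a ratio of 0.828 with an interval of 0.696 to 0.986. Psmb10 had 41.3 FPKM in ATPγS and 52.8 FPKM in control, a ratio of 0.783 with an interval of 0.619 to 0.985. The levels kept the order Psmb8, Psmb9, Psmb10 in both libraries. The first exon of a GENCODE transcript of Psmb9 overlaps that of Tap1 on the other strand, and a preparation that does not mark strand cannot tell reads of that overlap apart.

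Of the constitutive genes, Psmb7 alone had a ratio with a direction. Psmb5 had 100.6 FPKM in ATPγS and 94.2 FPKM in control (interval of the ratio 0.881 to 1.30), and Psmb6 had 137.7 FPKM in ATPγS and 148.8 FPKM in control (interval 0.781 to 1.10), both with log2 ratios closer to 0 than 0.13. Psmb7 was lower, with 32.3 FPKM in ATPγS and 47.9 FPKM in control (ratio 0.674, interval 0.515 to 0.883). It overlaps Nek6 on the other strand. The mean log2 ratio was -0.27 for the immunoproteasome genes and -0.19 for the constitutive genes, a difference of -0.07, which is smaller than the spread among the constitutive genes.

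The balance differed by position more than by library. At beta5 the immunoproteasome partner led, with Psmb8 at 61.9% of the pair in ATPγS (interval 58.4% to 65.2%) and 66.3% in control (62.5% to 70.0%). At beta1 the constitutive partner led, with Psmb9 at 34.3% of the pair in ATPγS (30.7% to 38.1%) and 36.8% in control (32.8% to 41.1%). At beta2 the partners were close, with Psmb10 at 56.1% of the pair in ATPγS (49.7% to 62.2%) and 52.4% in control (46.2% to 58.6%). The intervals of the libraries overlap at each position, and the share was lower in ATPγS at beta5 and beta1 and higher at beta2. In ATPγS the ratio of immunoproteasome to constitutive level was 1.62 at beta5, 0.522 at beta1 and 1.28 at beta2, and in control it was 1.96 at beta5, 0.583 at beta1 and 1.10 at beta2.

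**Figure D2:**
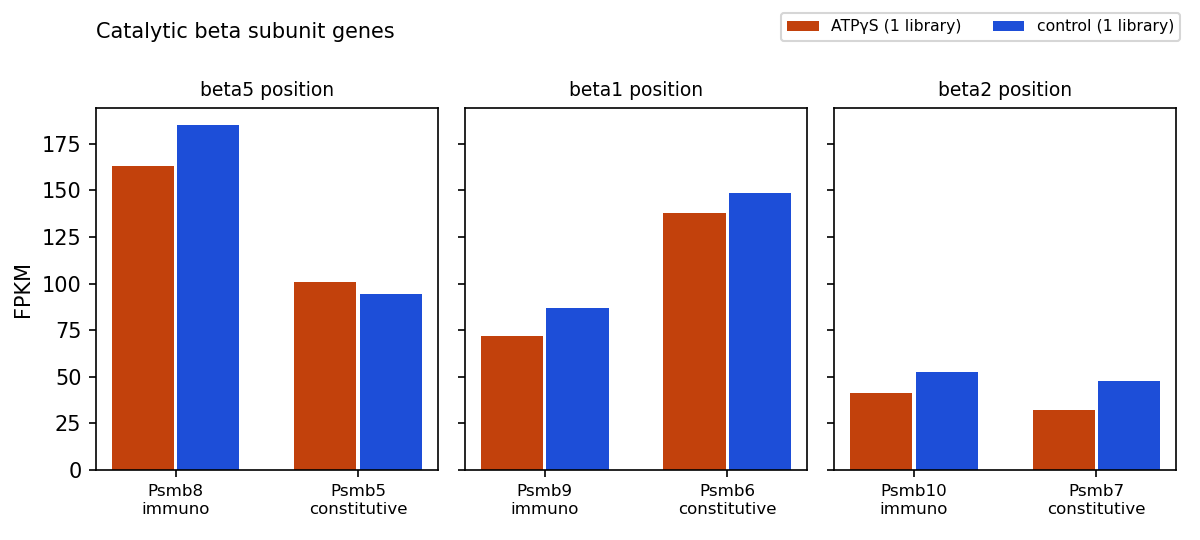
FPKM of the immunoproteasome and constitutive gene at each catalytic position, ATPγS bars left of control bars (1 library each, no error bars). Psmb8 exceeds Psmb5 in both libraries (163.2 and 100.6 FPKM in ATPγS, 185.0 and 94.2 FPKM in control), Psmb6 exceeds Psmb9, and the beta2 pair is the least abundant.

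Lymphocytes and dendritic cells carry immunoproteasome genes at high levels. The summed levels of lymphocyte markers were also lower in ATPγS, and that of macrophage and dendritic cell markers was higher. Past 2-fold on the lower side were 6 of 10 markers of T and NK cells, and on the higher side 1. Of all genes at a mean of at least 1 FPKM, 9.91% were lower and 13.8% higher by that much. The summed level of the T and NK cell markers was 92.1 FPKM in ATPγS and 261 FPKM in control. The B cell markers at a mean of at least 1 FPKM numbered 6, of which 1 passed 2-fold on each side. Of these 6, 4 had log2 ratios below 0 and 2 above. All 7 listed B cell markers had a summed level of 259 FPKM in ATPγS and 333 FPKM in control. For macrophages and dendritic cells 2 of 10 markers passed 2-fold on the higher side and 1 on the lower side, near the shares of all genes. At 1.5-fold 4 of these 10 were higher, against 24.1% of all genes, and 1 was lower, against 20.7%. Log2 ratios were above 0 for 8 of the 10 and below 0 for 2. The summed level of the 10 was 3229 FPKM in ATPγS and 2912 FPKM in control. Some markers past 2-fold rest on few reads, about 1 in ATPγS and 15 in control for Prf1. For Klrb1c the reads were about 13 in ATPγS and 3 in control, and for Clec9a 0 in ATPγS and 5 in control. Of 5 epithelial markers none passed 2-fold, with a summed level of 107 FPKM in ATPγS and 150 FPKM in control. None of these markers was listed at 0 in either library, and their part in the immunoproteasome values was not tested.

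In the ATPase ring of the cap, which unfolds substrates, 4 of 6 genes had log2 ratios between -0.08 and 0.04. Psmc5 (Rpt6), the most abundant, had 84.8 FPKM in ATPγS and 89.9 FPKM in control. Psmc3 (Rpt5) had 44.4 FPKM in ATPγS and 69.8 FPKM in control, a ratio of 0.637 with an interval of 0.526 to 0.769, and it overlaps Slc39a13 on the other strand. Psmc4 (Rpt3) had 54.5 FPKM in ATPγS and 71.1 FPKM in control, a ratio of 0.767 with an interval of 0.634 to 0.929. Psmc1, Psmc2 and Psmc6 had 62.7, 63.4 and 46.9 FPKM in ATPγS and 60.9, 63.5 and 46.6 FPKM in control. Those 3 genes had ratios between 0.999 and 1.03. Its median log2 ratio of -0.04 turns to 0.09 with the median of abundant genes set to 0.

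Of the 11 genes of the non-ATPase cap, 3 were at least 1.5-fold lower and none was at least 1.5-fold higher in ATPγS, and the median log2 ratio was -0.21. Over all genes at a mean of at least 20 FPKM, 16.4% were lower and 7.59% higher by that much. With the median of abundant genes set to 0 none of the 3 passed 1.5-fold, with log2 ratios of -0.53 for Psmd14, -0.47 for Psmd3 and -0.46 for Psmd7. Psmd14 (Rpn11), the deubiquitinase that removes the chain from the substrate, had 42.9 FPKM in ATPγS and 68.2 FPKM in control, a ratio of 0.629 with an interval of 0.516 to 0.768. Psmd7 (Rpn8), with which it forms a heterodimer, had 35.95 FPKM in ATPγS and 54.6 FPKM in control, a ratio of 0.659 with an interval of 0.532 to 0.820. Both genes of this heterodimer were thus lower by a similar factor. Psmd3 (Rpn3), the least abundant, had 20.5 FPKM in ATPγS and 31.4 FPKM in control, a ratio of 0.650 with an interval of 0.508 to 0.834.

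Psmd11 (Rpn6), which braces the cap against the core, was the highest in ratio, with 66.9 FPKM in ATPγS and 50.2 FPKM in control (ratio 1.33, interval 1.16 to 1.54). Psmd4 (Rpn10), a ubiquitin receptor, had 68.8 FPKM in ATPγS and 86.4 FPKM in control (ratio 0.796, interval 0.663 to 0.954). Psmd8 (Rpn12) had 80.5 FPKM in ATPγS and 72.4 FPKM in control, and its interval of 0.940 to 1.32 includes no difference. Psmd2 (Rpn1), the large scaffold that docks ubiquitin-like domains, had 58.6 FPKM in ATPγS and 56.1 FPKM in control. Psmd6 (Rpn7) had 57.6 FPKM in ATPγS and 66.5 FPKM in control, and Psmd1, Psmd12 and Psmd13 had log2 ratios of -0.06, -0.15 and -0.25.

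**Figure D3:**
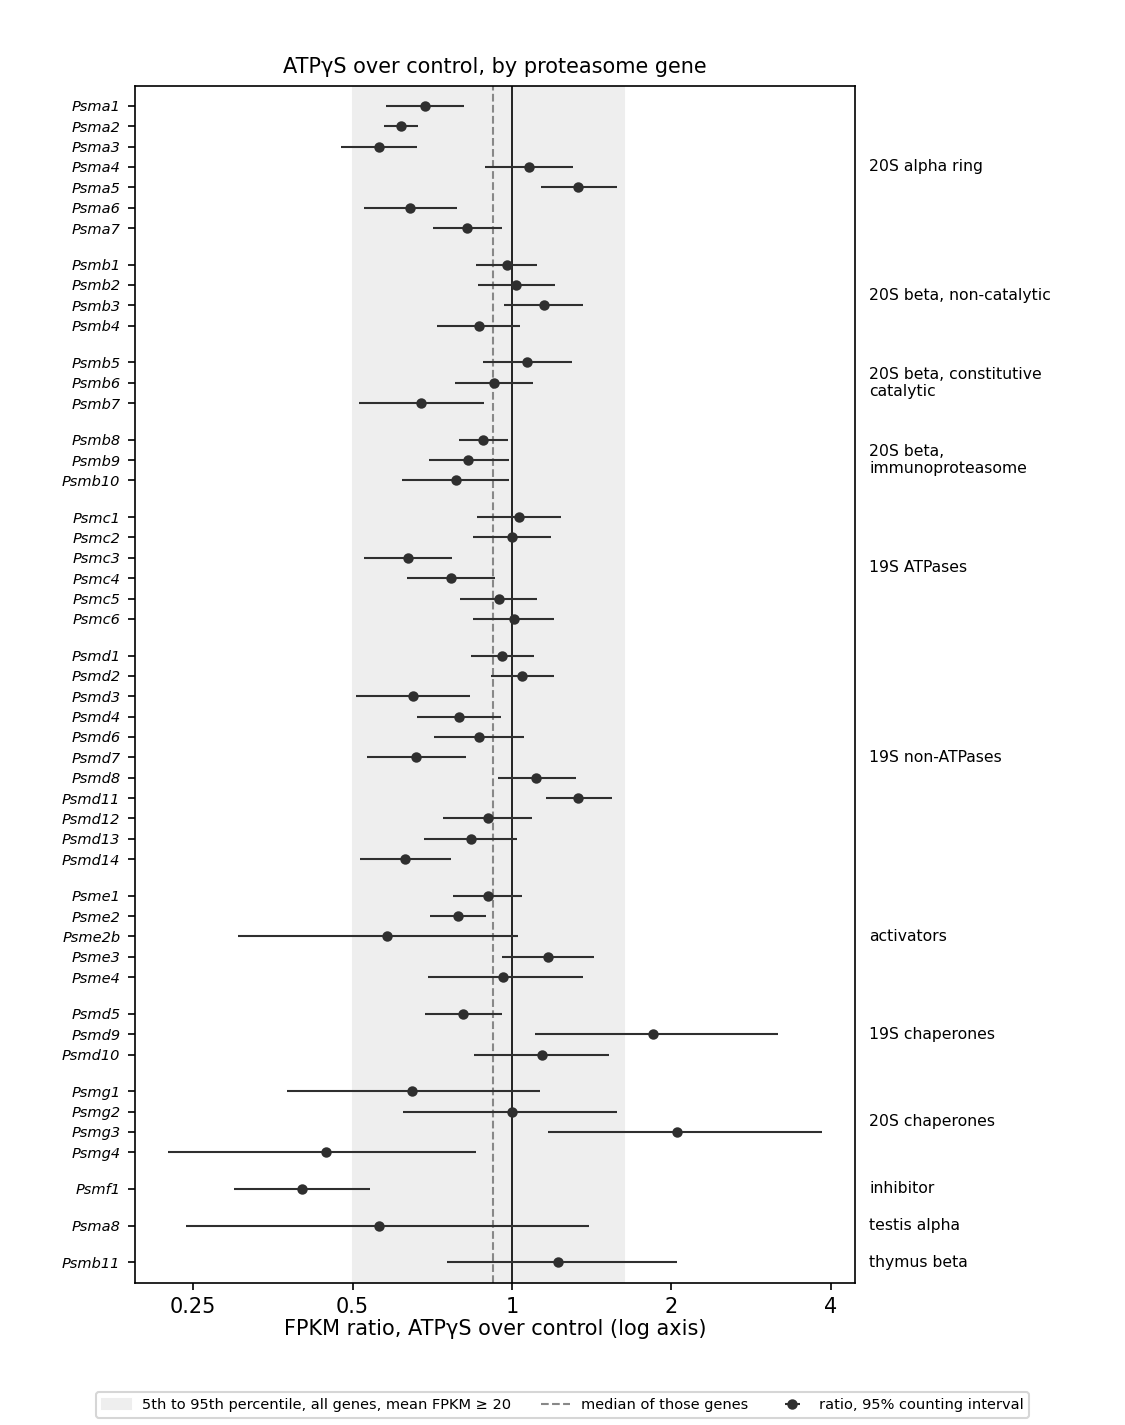
FPKM ratio of ATPγS over control (log axis) for the 49 genes, with 95% counting intervals as bars, the 5th to 95th percentile of all genes at a mean of at least 20 FPKM as a grey band (log2 ratios of -0.997 to 0.704) and their median as a dashed line. The subunits of the core and the cap lie inside the band, Psmf1 and Psmg4 lie below it and Psmd9 and Psmg3 above it. These 4 are low genes with wide bars, below the level of the genes behind the band. All 4 lie inside the 5th to 95th percentile of all genes at a mean of at least 1 FPKM (log2 ratios of -1.37 to 1.72). The bar of Psma2 rests on an uncertain transcript length.

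Intervals that cover counting error only excluded a ratio of 1 for 23 of the 49 genes. For 4 (8.16%) the ratio was above 1, where 22.2% of all genes with an interval were, and for 19 (38.8%) it was below 1, where 22.7% were. At a mean of at least 20 FPKM, 2 of 39 (5.13%) were above 1, where 20.8% of all such genes were, and 17 of 39 (43.6%) below 1, where 39.3% were. The 2 above 1 were Psma5 and Psmd11. With the median of abundant genes set to 0, intervals above 1 numbered 7 and those below 1 numbered 12. Psma7, Psmb8, Psmb9, Psmb10, Psmc4, Psmd4 and Psmd5 then included 1, and Psmb3, Psmd8 and Psme3 then lay above 1.

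The activators differed in level far more than between libraries. Psme2, the beta chain of the PA28 activator that interferon induces, was the most abundant of all 50 genes, with 239.4 FPKM in ATPγS and 302.4 FPKM in control (ratio 0.792, interval 0.700 to 0.894). Psme1, the alpha chain of the same ring, had 123.9 FPKM in ATPγS and 137.6 FPKM in control (interval 0.775 to 1.04). Psme3, which forms the nuclear PA28 gamma ring, had 33.9 FPKM in ATPγS and 29.03 FPKM in control (interval 0.957 to 1.43). Psme4, the large single-chain activator PA200, had 4.52 FPKM in ATPγS and 4.70 FPKM in control. The interferon-induced PA28 chains thus stood well above the other activators in both libraries. As deposited, Psme2 alone among the activators had an interval that excludes 1, and with the median of abundant genes set to 0 that of Psme3 does too (1.05 to 1.57). Psme2b had 9.02 FPKM in ATPγS and 15.5 FPKM in control, with an interval of 0.304 to 1.03 that includes no difference.

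The inhibitor gene Psmf1 (chromosome 2, 151715812 to 151744186) had the lowest log2 ratio of the 49 genes, at -1.20. It had 6.72 FPKM in ATPγS and 16.8 FPKM in control, from about 73 and 136 reads, a ratio of 0.401 with an interval of 0.299 to 0.539. PI31, its product, binds the core and inhibits it in vitro. Psmf1 was at least 2-fold lower also under both rescalings of the libraries, and not with a pseudocount of 5.

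Among the chaperone genes of 20S assembly, the partners Psmg3 and Psmg4 differed in direction, while the intervals of Psmg1 and Psmg2 both include no difference. Psmg4 (chromosome 13, 34162964 to 34178173) had 11.8 FPKM in ATPγS and 26.4 FPKM in control, from about 16 and 27 reads, a ratio of 0.446 with an interval of 0.224 to 0.856. Psmg3, whose product pairs with that of Psmg4, had 22.5 FPKM in ATPγS and 11.004 FPKM in control, from about 47 and 17 reads, a ratio of 2.05 with an interval of 1.17 to 3.85. Psmg3 overlaps Gm26938, annotated as protein-coding, on the same strand. The log2 ratio of Psmg3, 0.97 with the pseudocount, lay just under 2-fold, and that of Psmg4, at -1.10, just past it. With the median of abundant genes set to 0, Psmg3 passed 2-fold (1.10) and Psmg4 did not (-0.98), and these few reads limit both values. Psmg1, of the other heterodimer, had 9.14 FPKM in ATPγS and 14.1 FPKM in control (interval 0.375 to 1.13), and its partner Psmg2 had 15.4 FPKM in both libraries (interval 0.622 to 1.58).

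The chaperones that assemble the base of the cap were mixed. Psmd9 (p27) had 7.29 FPKM in ATPγS and 3.96 FPKM in control, from about 54 and 22 reads, a ratio of 1.84 with an interval of 1.10 to 3.18, and it overlaps Hpd on the other strand. Psmd5 (S5b) had 23.6 FPKM in ATPγS and 29.1 FPKM in control (interval 0.685 to 0.959). Psmd10 (gankyrin) had 30.5 FPKM in ATPγS and 26.8 FPKM in control (interval 0.849 to 1.52). Psmd9 was the only one of the 3 past 1.5-fold. The tissue-restricted subunits were at low levels, with Psma8 of the testis core at 2.197 FPKM in ATPγS and 3.91 FPKM in control, and Psmb11 of the thymus core at 3.83 FPKM in ATPγS and 3.14 FPKM in control. Both intervals include no difference.

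**Figure D4:**
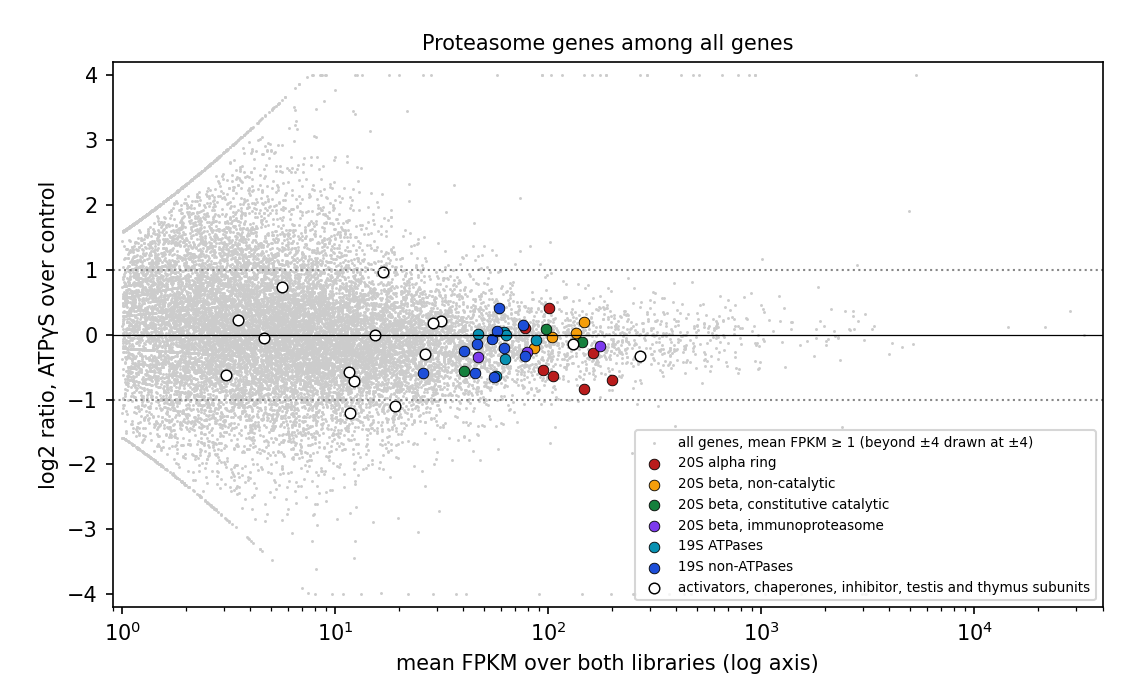
Log2 ratio of ATPγS over control against mean FPKM over both libraries (log axis) for all 18311 genes at a mean of at least 1 FPKM (grey, values beyond 4 drawn at the edge), with the 49 proteasome genes in colour by role and dotted lines at 2-fold. The proteasome genes at a mean of at least 20 FPKM run from -0.83 to 0.41, and the 2 genes past the lower line are at lower levels.

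Promoter windows of 250 bases before to 50 after the RefSeq start site (GRCm38.p6) were matched by symbol for 42 of the 50 genes, in 45 windows. Motifs were searched on both strands, and the share of all 32851 windows that hold each stands beside the count. The core of the interferon-stimulated response element, which is GAAA, any 2 bases and GAAA again, was in windows of 5 genes (3.44% of all windows), namely Psmb3, Psmd4, Psmd9, Psme1 and Psmg4. The interferon-gamma activated site, TTCNNNGAA, was in windows of 3 genes (8.30% of all windows), namely Psmb8, Psmd2 and Psmg1. The core of the antioxidant response element, TGACNNNGC, was in windows of 6 genes (12.4% of all windows), among them Psmb5 and Psmb6, and the kappaB motif, which is GGG, any 3 bases and TTCC, was in windows of 3 (5.56%). The AP-1 motif TGANTCA was in windows of 2 genes (7.81%) and the cyclic AMP response element TGACGTCA in 0 (1.79%). The GC box GGGCGG was in windows of 23 genes (35.7% of all windows) and CCAAT in windows of 15 (37.4%).

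The start sites of Psmb9 and Tap1, the transporter gene that supplies peptides to MHC class I, lie 225 bases apart on opposite strands (chromosome 17, 34187331 to 34187555, GRCm38.p6), so their promoter windows overlap by 275 bases. Both genes were lower in ATPγS as deposited, and Tap1 had 56.5 FPKM in ATPγS and 86.6 FPKM in control (ratio 0.653, interval 0.571 to 0.745). With the median of abundant genes set to 0, the counting interval of Psmb9 includes 1 (0.762 to 1.08). Reads where both genes overlap cannot be told apart. Short stretches around single matches are shown for the bases between both start sites and for Psmb8 and Psme1 as interferon-induced members. Psmg4 is shown as a gene past 2-fold as deposited. The capitals mark the motif match, which is the GC box for Psmb9, the interferon-gamma activated site for Psmb8 and the interferon-stimulated response element core, or its reverse complement, for Psme1 and Psmg4.
Psmb9 (chr17:34187368-34187397, minus strand): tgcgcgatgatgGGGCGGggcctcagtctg
Psmb8 (chr17:34198088-34198117, plus strand): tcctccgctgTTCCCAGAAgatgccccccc
Psme1 (chr14:55578493-55578522, plus strand): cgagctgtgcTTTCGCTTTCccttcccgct
Psmg4 (chr13:34162969-34162998, plus strand): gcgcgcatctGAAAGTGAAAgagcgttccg

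A match describes the letters of a window and is no evidence of binding. Of the 5 genes with the interferon-stimulated response element core, Psmg4, Psmd4 and Psme1 had log2 ratios of -1.10, -0.33 and -0.15. Psmb3 and Psmd9 had log2 ratios of 0.20 and 0.74. With the median of abundant genes set to 0, Psmg4 was not past 2-fold (-0.98).

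Of 28 genes of proteasome partners and of ubiquitin supply found in the tables, 0 passed 2-fold, while 3 passed 1.5-fold on the higher side and 4 on the lower side, with a median log2 ratio of -0.09. Both counts are below the shares of all genes at a mean of at least 1 FPKM past 1.5-fold, which were 24.1% higher and 20.7% lower. A mean of at least 20 FPKM was reached by 17 of the 28 genes. Over all genes at that level the shares were 7.59% higher and 16.4% lower. On the higher side Zfand2a (mean 40.7 FPKM) reached that level, and Ubr4 (7.11 FPKM) and Ddi2 (5.80 FPKM) did not. On the lower side Rps27a (254.7 FPKM) and Uchl5 (21.8 FPKM) reached it, and Akirin2 (14.4 FPKM) and AI314180 (10.2 FPKM) did not. Ddi2, the protease that activates the proteasome-inducing factor Nfe2l1, had 7.92 FPKM in ATPγS and 3.67 FPKM in control (log2 ratio 0.93). Akirin2, which in human cells brings the proteasome into the nucleus, had 9.90 FPKM in ATPγS and 18.99 FPKM in control (log2 ratio -0.88). AI314180, the mouse symbol of a proteasome scaffold gene (Ecm29), had 7.05 FPKM in ATPγS and 13.4 FPKM in control (log2 ratio -0.84). Uchl5, a deubiquitinase of the cap, had 15.7 FPKM in ATPγS and 27.9 FPKM in control (log2 ratio -0.79).

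Of 15 genes of interferon control and MHC class I peptide supply, 12 had log2 ratios below 0, with a median of -0.29. Among them, H2-D1 (-0.03) and Canx (-0.07) are too close to 0 for a direction. A mean of at least 20 FPKM was reached by 12 of the 15 genes. Of all genes at that level 60.7% had log2 ratios below 0, with a median of -0.12. None was at least 2-fold lower, against 9.91% of all genes, and 1 was at least 2-fold higher, against 13.8%. The 3 genes at least 1.5-fold lower are a share near the 20.7% of all genes. The higher gene was H2-L, with 13.5 FPKM in ATPγS and 4.17 FPKM in control, which is uncertain because it is a near copy of H2-D1. Erap1, the peptidase that trims peptides for MHC class I, had 8.19 FPKM in ATPγS and 13.3 FPKM in control (log2 ratio -0.64). Erap1 and Tap1 (log2 ratio -0.61) were both past 1.5-fold on the lower side as deposited, with larger differences than those of the immunoproteasome genes. Setting the median of abundant genes to 0 raises log2 ratios by about 0.13, which leaves neither gene past 1.5-fold.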

How the data were processed

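RNA from 1 library per group was analysed. The kits were SMART-Seq HT for cDNA and Nextera for libraries, per the labels' protocols, and this preparation does not mark strand. The authors deposited FPKM with 1 value per gene symbol. The submitters' processing notes name mm10 with Cufflinks 2.2.1, TopHat2 2.0.13, SAMtools 0.1.19 and Bowtie2 2.2.3. The gene annotation is not given in the sources used here.

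FPKM are not counts, so no count test was run, and 1 library per group allows no p-value. Depth was recovered in 1252 receptor genes of smell and pheromone sensing, whose FPKM multiplied by coding length fall into steps of single reads, where 70.9% of 574 low values in ATPγS and 71.0% of 562 in control came out whole within 0.05 reads. Reads per gene were estimated from that depth and the shortest RefSeq-mapped coding transcript of GENCODE M21 (GRCm38), and intervals of ratios and shares are 95% exact binomial (Clopper-Pearson). They cover counting error only. Levels of different genes were compared only as FPKM, which is per length. The steps were tested on simulated data. Python 3.11.15, pandas 2.3.3, NumPy 2.4.6, SciPy 1.17.1 and matplotlib 3.10.9 were used.

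The members, the lists of partners, of interferon and MHC class I genes and of markers, and the thresholds were chosen with earlier results of these data known. Named were all catalytic subunits, activators, chaperones and the inhibitor, in other classes the 3 most abundant genes and those with the 3 highest and 3 lowest log2 ratios, every gene past 2-fold, and the 4 largest absolute log2 ratios of each pathway list, of which some are not reported here. As alternatives, results were computed with pseudocounts of 0.1 and 5, with both libraries set to the same FPKM sum, with the median log2 ratio of genes at 10 FPKM or more set to 0, and with other minimum levels and thresholds, means in place of medians, and leaving out each catalytic pair. The counts at 1.5-fold and 20 FPKM under both rescalings, the interval counts and intervals under the median of 0 and the longest transcript for the reads were added after seeing the data.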

Additional observations from a re-analysis of the deposited data

How the results depend on the processing

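Neither group has a replicate, and the low chaperone, inhibitor and tissue-restricted genes rest on few reads. No paired analysis was possible because each group has 1 library. Of the main results under the alternatives, 83 values moved by less than the limits set for them and 24 moved more.

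The count of genes at least 2-fold higher was 0, and became 1 with a pseudocount of 0.1, 1 with the same FPKM sum, 1 with the median log2 ratio set to 0, and 2 at a threshold of 1.5-fold. The count at least 2-fold lower was 2, and became 0 with a pseudocount of 5, 1 with the median set to 0, 0 at a mean of at least 20 FPKM, 11 at 1.5-fold and 0 at 3-fold.

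With the median set to 0, class medians of log2 ratios became -0.41 for the alpha ring, 0.13 for the non-catalytic beta genes, -0.14 for the immunoproteasome genes, 0.088 for the ATPases, -0.077 for the non-ATPases, -0.020 for the activators and -0.050 for all members, for which the same FPKM sum gave -0.13. Means in place of medians gave -0.35 for the alpha ring and -0.17 for the ATPases. At a mean of at least 20 FPKM the 19S chaperones had -0.057, and the 20S chaperones had no member left. The immunoproteasome share became 40.0% in ATPγS and 41.5% in control without Psmb8 and Psmb5, and 60.6% in ATPγS and 62.6% in control without Psmb9 and Psmb6.

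Genes at least 1.5-fold lower at a mean of at least 20 FPKM became 4 with the same FPKM sum and 1 with the median set to 0. Intervals that exclude 1 became 7 above and 12 below with the median set to 0, which by construction raises each ATPγS value by 1.10 times.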
